A study of Mus musculus with 6 samples.

Results

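The luminal and basal keratins described here are 10 genes chosen by name: Krt7, Krt8, Krt18 and Krt19 of luminal or simple epithelium, Krt5, Krt14, Krt15 and Krt17 of basal epithelium, and Krt10 and Krt80 of suprabasal and other layers. Each was found as 1 row among the 39179 gene identifiers of the deposited table and joined by that identifier to the read counts of each library. Cells of the AXL-/- or AXL+/+ genotype from the MMTV-Neu mammary tumour model were grafted into mice of the FVB strain, with 3 libraries of the AXL KO genotype and 3 of the WT genotype. All grafts, WT included, carried the Neu background, in which a viral promoter active in mammary epithelium drives the ErbB2 oncogene Neu. AXL is a receptor tyrosine kinase, and the comparison asks how keratin transcripts differ between grafts of cells without and with it. The deleted part of Axl, the number of cell lines or clones, the animals' age and whether the 3 grafts of a genotype came from separate animals are not stated in the labels, so p-values measure the spread between these libraries and genotype cannot be told apart from the line grafted.

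Keratins are the intermediate filament proteins of epithelial cells, and a filament forms only when an acidic type I chain pairs with a basic type II chain. In the mammary gland, luminal cells use Krt8 (type II) with Krt18 and Krt19 (type I), often with the type II chain Krt7, whereas basal and myoepithelial cells use Krt5 (type II) with Krt14 and Krt17 (type I). The type II genes and Krt18 lie in a cluster on chromosome 15 and the other type I genes in a cluster on chromosome 11. Krt15 is a type I chain of basal cells, Krt10 is the type I chain of differentiating epidermis, where it pairs with Krt1, and Krt80 is a type II chain related to the hair keratins. Tumours driven by Neu in the mammary gland are known as luminal.

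The 3 AXL KO libraries held 28808499 to 32491807 counts in genes and the 3 WT libraries 26541009 to 29977133. Axl itself was counted 1360, 2396 and 1767 times in the AXL KO libraries and 1906, 1761 and 1507 times in the WT libraries, and since the deleted part is not given these counts per gene did not check the genotype, and every direction below is between libraries as labelled. A graft also holds host cells, and in bulk RNA fewer cells of a type and less RNA per cell cannot be told apart. Transcripts of fibroblasts, vessels and leukocytes were present in all 6 libraries. Markers of mesothelium, which also carries Krt7, Krt8, Krt18 and Krt19, were nearly absent: their 8 genes summed to between 0.131 and 0.402 CPM (counts scaled to a common library size) in AXL KO libraries and between 0.0698 and 0.479 CPM in WT libraries, with Msln, Upk3b, Upk1b and Muc16 at 0 throughout.

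The keratin transcripts of these grafts were almost entirely those of a simple luminal epithelium. Krt8 and Krt18 together held 99.2%, 99.0% and 99.0% of the reads of the 10 genes in the AXL KO libraries, against 97.9%, 98.3% and 98.3% in the WT libraries. Per length, in TPM (reads per base of transcript, scaled to a fixed total), Krt18 stood at 1191 ± 119 in AXL KO libraries and 1796 ± 237 in WT libraries (SD, n = 3 each), which placed it at ranks 71, 74 and 85 of all genes in the AXL KO libraries and 54, 37 and 43 in the WT libraries. Krt8 stood at 696 ± 51.6 TPM in AXL KO libraries and 936 ± 42.0 TPM in WT libraries, with ranks of 131, 163 and 160 in the AXL KO libraries and 132, 118 and 114 in the WT libraries. Krt7 came far below, at 5.20 ± 0.275 TPM in AXL KO libraries and 18.9 ± 1.23 TPM in WT libraries. Krt10 stood at 2.84 ± 0.0730 TPM in AXL KO libraries and 1.57 ± 0.290 TPM in WT libraries. Krt80 stood at 0.524 ± 0.0781 TPM in AXL KO libraries and 0.422 ± 0.190 TPM in WT libraries, and the other 5 genes were lower still. The order Krt18, Krt8, Krt7, Krt10, Krt80 was the same in each group mean, and no neighbours in it overlapped among the AXL KO libraries or among the WT libraries.

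**Figure D1:**
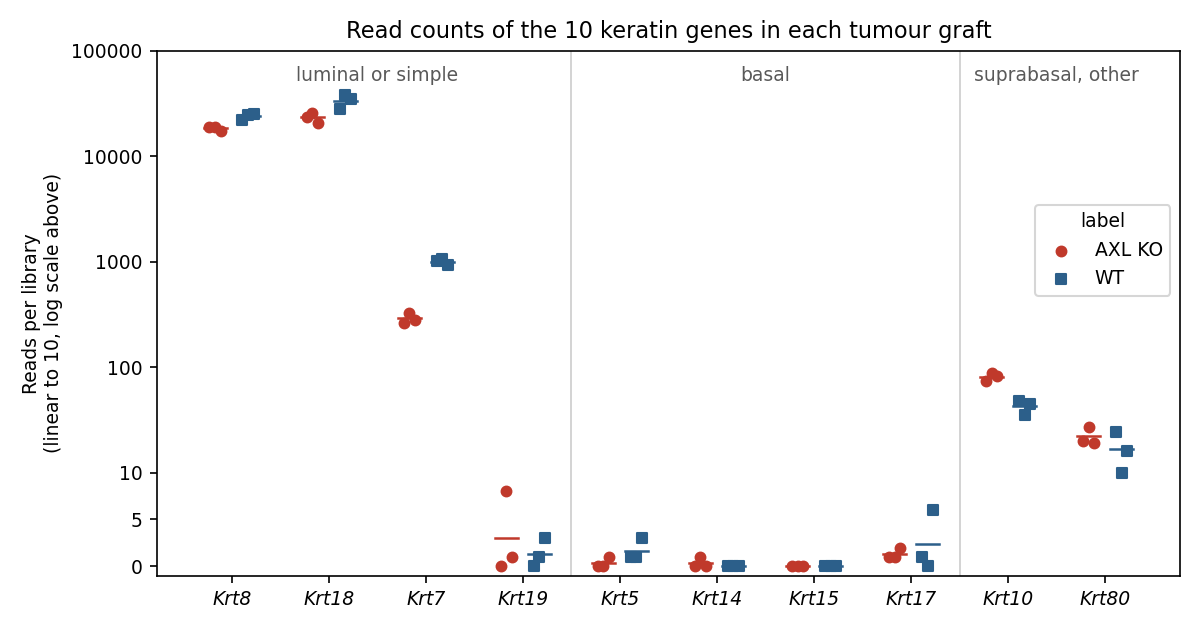
Read counts of the 10 keratin genes in each library, as labelled, with AXL KO libraries (circles) left of WT libraries (squares); short lines are group means and the axis is linear up to 10 reads and logarithmic above. Krt8 and Krt18 have 17502 to 38339 reads in every library, while Krt19 and the 4 basal keratins have at most 8.

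The basal keratins and Krt19 were at or close to 0 in both groups. Krt5 was counted 0, 0 and 1 times in the AXL KO libraries and 1, 1 and 3 times in the WT libraries. Krt14, its usual partner, gave a single read in all 6 libraries, in AXL KO replicate 2, and Krt15 gave none. Krt17, a basal keratin also induced in stressed epithelium, had 1, 1 and 2 reads in AXL KO libraries and 1, 0 and 6 in WT libraries. Together the 4 basal genes made up 0.00232%, 0.00444% and 0.00778% of the reads of the 10 genes in the AXL KO libraries, against 0.00394%, 0.00156% and 0.0148% in the WT libraries. The exact 95% intervals, which cover counting error only, overlapped between the groups and reached no higher than 0.0282%, in WT replicate 3.

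Krt19, a small type I keratin widely carried by luminal epithelium, was as low as the basal genes and far below its luminal relatives. It had 0, 8 and 1 reads in AXL KO libraries and 0, 1 and 3 in WT libraries. Zero reads allow a level of up to 3 counts, or 0.104 CPM (by total counts) in AXL KO replicate 1 and 0.113 CPM in WT replicate 1. All 5 of these genes were below the count filter, with 31 reads among them over 6 libraries, and were therefore not tested. At this depth no difference between the groups was detectable for Krt5, Krt14, Krt17 or Krt19: fitted without a filter, the 95% intervals of their log2 fold changes ran from -4.81 to 0.76, -2.27 to 5.96, -3.14 to 1.49 and -1.44 to 3.48. Krt14 and Krt17 share 754 bases at 90.7% identity, so reads that align to both are missing from both, and their low counts are uncertain to that extent.

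Of the 5 keratin genes that passed the filter, 3 were lower and 1 was higher in the AXL KO libraries at a Benjamini-Hochberg adjusted p under 0.05 (edgeR quasi-likelihood test over 14850 genes). In the same fit 18.3% of all tested genes were lower and 19.1% higher, so changes of either kind were common in this comparison. The 3 lower genes were the luminal ones, Krt7, Krt8 and Krt18, all on chromosome 15, and the higher one was Krt10, on chromosome 11. Windows around the RefSeq starts of these 4 genes are shown because they are the members that differed.

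Each sequence runs 5′ to 3′ on the gene's strand, from 120 bases before the RefSeq start to 30 bases from it (build GRCm38.p6): chr15:101412283-101412432 on the plus strand, chr15:102004313-102004462 on the minus strand, chr15:102028096-102028245 on the plus strand and chr11:99389335-99389484 on the minus strand. Capitals mark matches, on either strand, to the 5 motifs searched: the TATA box TATAAA, the GC box GGGCGG, the E-box CAGGTG, the AP-1 site TGANTCA and the GAS element TTCNNNGAA.
Krt7: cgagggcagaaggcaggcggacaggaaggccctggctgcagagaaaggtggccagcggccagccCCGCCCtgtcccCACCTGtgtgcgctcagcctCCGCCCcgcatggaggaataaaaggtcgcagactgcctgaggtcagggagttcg
Krt8: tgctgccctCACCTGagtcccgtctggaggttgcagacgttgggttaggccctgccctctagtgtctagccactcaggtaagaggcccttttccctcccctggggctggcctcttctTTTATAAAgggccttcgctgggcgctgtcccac
Krt18: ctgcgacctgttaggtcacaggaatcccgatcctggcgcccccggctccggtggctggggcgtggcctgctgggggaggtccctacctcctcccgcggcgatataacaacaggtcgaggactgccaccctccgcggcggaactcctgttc
Krt10: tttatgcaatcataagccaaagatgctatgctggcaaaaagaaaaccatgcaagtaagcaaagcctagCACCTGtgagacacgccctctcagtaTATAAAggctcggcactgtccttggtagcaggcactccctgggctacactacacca
Of the 10 genes, 6 had an entry in the promoter table. Krt7 holds GC boxes at -56 to -51 and -24 to -19, with an E-box between them at -44 to -39. Krt8 holds an E-box at -111 to -106 and a TATA box that spans the RefSeq start, read on both strands in overlapping matches. Krt10 holds a TATA box at -26 to -21 and an E-box at -52 to -47, and the window of Krt18 holds none of the 5 motifs. Among 32851 promoter windows of this length, 7.16% hold the TATA box, 29.1% the GC box, 10.5% the E-box, 4.16% the AP-1 site and 4.0% the GAS element. These matches describe the letters only. The windows of Krt7 and Krt8 lie wholly inside the gene spans given below, which begin further upstream. Positions in these windows therefore refer to the RefSeq start and not to the start of the gene span.

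Krt7 showed the largest change of the 5 genes tested. The gene (ENSMUSG00000023039) spans chr15:101411043-101430313 on the plus strand of GRCm38. It had 264, 326 and 281 reads in the AXL KO libraries, or 9.35, 10.1 and 9.23 CPM, against 1006, 1066 and 936 reads in the WT libraries, or 37.0, 35.4 and 32.6 CPM. The groups were far apart, with little spread within either. Its level was 9.55 ± 0.455 CPM in AXL KO libraries and 35.0 ± 2.22 CPM in WT libraries (SD, n = 3 each), which is 3.67-fold lower in AXL KO. On the log2 scale the fitted change was -1.87 ± 0.09 (SE; 95% interval -2.09 to -1.66; edgeR adjusted p = 4.91e-06), and 186 of the 14850 tested genes had a lower one. Relative to Krt8 and Krt18 it was lower in all 3 AXL KO libraries than in any WT library: Krt8 and Krt18 together exceeded it 406-, 346- and 340-fold per length in AXL KO libraries, against 124-, 151- and 161-fold in WT libraries. The difference in that log2 ratio was -1.33, and the exact permutation test gave p = 0.1, the smallest that 3 libraries against 3 allow (two-sided; 0.25 adjusted over 5 ratios).

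Krt8 and Krt18, the main luminal pair, were lower by smaller amounts. Krt8 (ENSMUSG00000049382) lies at chr15:101996698-102004482 on the minus strand and Krt18 (ENSMUSG00000023043) at chr15:102028180-102032027 on the plus strand. Krt18 had 840, 788 and 679 CPM in the AXL KO libraries, against 1022, 1274 and 1208 CPM in the WT libraries, from 20658 to 38339 reads each. All AXL KO libraries lay below all WT libraries, and Krt18 was 1.52-fold lower (log2 -0.60 ± 0.11 SE, edgeR adjusted p = 0.00314). Krt8 had 672, 590.4 and 575 CPM in the AXL KO libraries, against 806, 815 and 873 CPM in the WT libraries. It too did not overlap between the groups and was 1.36-fold lower (log2 -0.44 ± 0.08 SE, edgeR adjusted p = 0.0037). Neither call held once the shift of chromosome 15 as a whole was taken out, as described with the chromosome medians. Groups that do not overlap were common, with 25.2% of tested genes lower and 26.9% higher in that sense. Krt8 has a pseudogene, Krt8-ps, that is 98.6% identical over 941 bases, and Krt18 has Gm5200, 90.2% identical over 1269 bases, so reads aligning to both copies are missing from the counts of each library.

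A difference in the type II to type I balance was not shown. Krt8 over Krt18, per length, was 0.587, 0.550 and 0.622 in AXL KO libraries, against 0.579, 0.469 and 0.530 in WT libraries, and the groups overlapped (exact permutation p = 0.2, adjusted 0.333). The ratio of all 4 type II genes to all 6 type I genes differed by 0.14 on the log2 scale (exact permutation p = 0.3, adjusted 0.375). Without Krt8 and Krt18 the difference was -2.58 (exact permutation p = 0.1, the smallest possible, not adjusted). What is left is mainly Krt7 over Krt10 reads, so this value restates the changes of those 2 genes. The ratio of basal to luminal genes rested on 1 to 9 basal reads a library and gave p = 0.9 (exact permutation test, adjusted 0.9), and its direction turned when AXL KO replicate 3 (-0.23) or WT replicate 2 (-0.71) was left out.

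**Figure D2:**
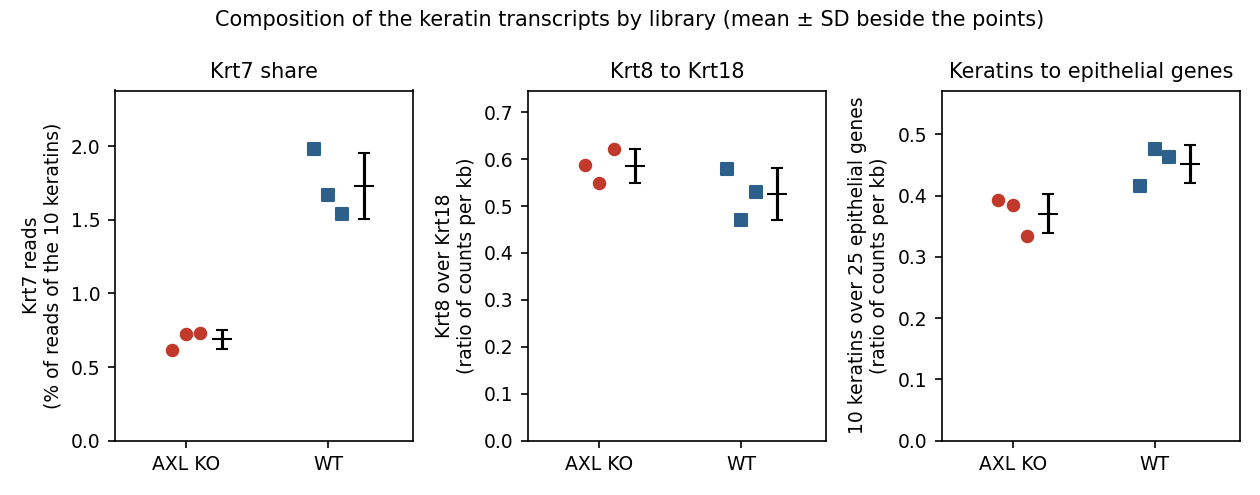
Keratin composition of each library, AXL KO left of WT: Krt7 reads as a percent of the reads of the 10 genes, Krt8 over Krt18 per length, and the 10 keratins over 25 non-keratin epithelial genes per length, with mean ± SD beside the points. Krt7 makes up 0.613% to 0.729% of those reads in AXL KO libraries and 1.54% to 1.98% in WT libraries, while the Krt8 to Krt18 ratios overlap.

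Krt10 was higher in the AXL KO libraries, at a low level. The gene (ENSMUSG00000019761) lies at chr11:99385254-99389364 on the minus strand. It had 74, 87 and 82 reads in the AXL KO libraries, or 2.62, 2.69 and 2.69 CPM, against 48, 35 and 45 reads in the WT libraries, or 1.77, 1.16 and 1.57 CPM. The groups did not overlap, and the log2 fold change was 0.83 ± 0.20 (SE), a 1.78-fold increase (edgeR adjusted p = 0.0124). The call did not hold at an adjusted p under 0.01. Its epidermal partner Krt1 had 2, 0 and 0 reads in AXL KO libraries and 1, 1 and 1 in WT libraries, and the cornified envelope genes Lor and Ivl had 4 and 0 reads over all 6 libraries. Krt2, Flg, Ivl and Lce1a1 were at 0 in every library, and the 16 epidermal markers summed to between 17.6 and 19.6 CPM in AXL KO libraries and between 30.9 and 34.8 CPM in WT libraries. Of the 16 epidermal markers 4 could be tested, too few to set against the 18.3% of all tested genes lower and 37.4% called. Of these 4, 2 fell: Sfn (2.60-fold lower, edgeR adjusted p = 6.78e-05) and Dmkn (2.36-fold lower, edgeR adjusted p = 0.00757). Krt10 shares 146 exonic bases with Gm11940 on the opposite strand, and without a statement on strand their reads cannot be told apart. Gm11940 itself had 4, 6 and 5 reads in AXL KO libraries and 2, 1 and 3 in WT libraries.

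Krt80 did not pass the test. It had 20, 27 and 19 reads in the AXL KO libraries and 24, 10 and 16 in the WT libraries, and the groups overlapped. Its fitted change was 0.30 on the log2 scale (95% interval -0.51 to 1.11, edgeR adjusted p = 0.535). It was 0.70 when WT replicate 1 was left out and was 0.012 without WT replicate 2, with no call in either.

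Beyond the 10, the table held 41 further keratin genes, of which 26 had no read in any library and 12 had between 1 and 15 reads in all. Of these 41, 3 could be tested, and 1 of them, Krt23, was called. Krt23, a type I keratin of simple epithelia, was the third keratin of these grafts per length, above Krt7: it stood at 65.0 ± 0.309 TPM in AXL KO libraries and 41.5 ± 8.33 TPM in WT libraries (SD, n = 3 each). It had 46.1, 45.4 and 45.7 CPM in AXL KO libraries, against 36.9, 26.0 and 25.6 CPM in WT libraries. The groups did not overlap, and it rose 1.55-fold (log2 fold change 0.63 ± 0.14 SE, edgeR adjusted p = 0.00667), opposite in direction to Krt7, Krt8 and Krt18. Krt71, a hair follicle keratin, and Krt79 had log2 fold changes of -0.37 and 0.075 and did not pass (edgeR adjusted p = 0.283 and 0.872).

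**Figure D3:**
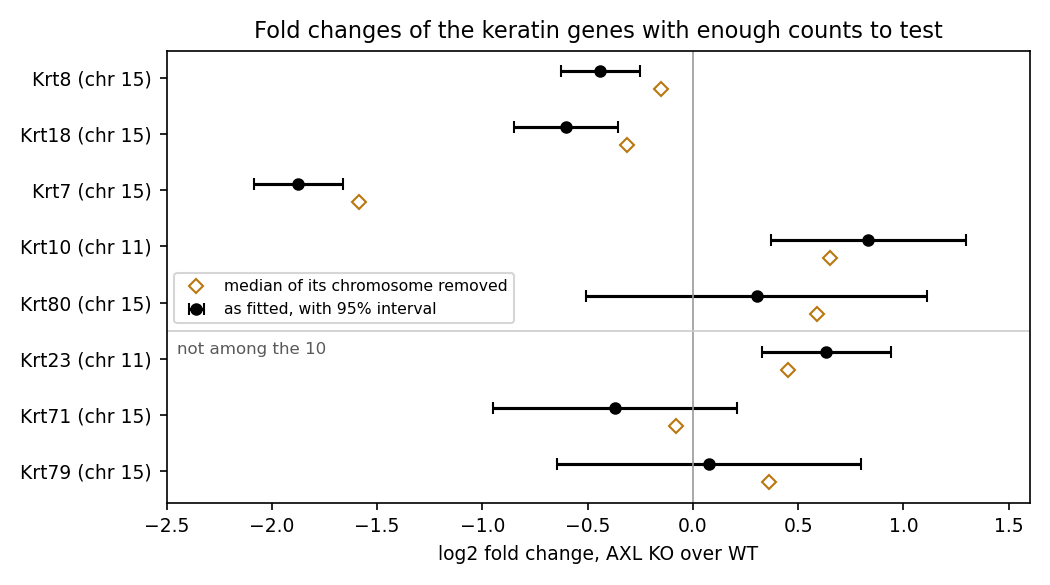
Log2 fold changes, AXL KO over WT, of the 8 keratin genes with enough counts to test, as fitted with 95% intervals (filled circles) and after the median log2 fold change of the gene's chromosome is taken out (open diamonds). Krt7 lies at -1.87 and at -1.59 after removal, while Krt8 and Krt18 move to -0.15 and -0.31.

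Most called genes of chromosome 15 were lower in the AXL KO libraries, and most called genes of chromosome 11 were higher. The median log2 fold change of the 568 tested genes of chromosome 15 was -0.29, with 243 called lower and 36 higher, and that of the 1231 genes of chromosome 11 was 0.18, with 127 called lower and 408 higher, against a median of 0.00 over all tested genes. Chromosome medians lay more than 0.1 from 0 for 9 of 20 chromosomes. Within 1 Mb of Krt8, 23 of 39 tested genes were lower and 1 was higher, with a median of -0.37. Within 1 Mb of Krt10, 8 of 28 tested genes were higher and 4 lower, with a median of 0.14, and within 5 Mb 38 of 213 were higher and 36 lower, with a median of 0.042. Over all tested genes of the same fit 19.1% were higher and 18.3% lower, shares near those within 5 Mb of Krt10. With chromosome medians removed, Krt8 stood at -0.15 (edgeR adjusted p = 0.197) and Krt18 at -0.31 (edgeR adjusted p = 0.0571), and neither was called. Krt7 stood at -1.59 (edgeR adjusted p = 9.56e-06), Krt10 at 0.65 (edgeR adjusted p = 0.0406) and Krt23 at 0.45 (edgeR adjusted p = 0.0341), and all of these kept their calls, in a fit that called 15.0% of genes lower and 15.0% higher. On chromosome 15, 8 genes had a lower fold change than Krt7, 94 a lower one than Krt18 and 167 a lower one than Krt8. What moved the chromosome medians was not tested.

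The nearest tested genes on either side of the keratins were lower or did not pass, apart from the keratins themselves. Krt8 and Krt18, 23697 bases apart, are each other's nearest tested genes. Eif4b, a translation initiation factor gene on the far side of Krt18, stood at -0.19 ± 0.09 (log2, SE) and did not pass (edgeR adjusted p = 0.151), and Krt79, on the far side of Krt8, lay at 0.075. Krt7 lies between Krt80 (0.30) and Krt71 (-0.37), neither of which passed, and 9430023L20Rik, on the far side of Krt80, was lower (log2 -0.39, edgeR adjusted p = 0.00578). Krt10 lies between Krt23, which rose, and Smarce1, a chromatin remodelling gene at -0.0079 (edgeR adjusted p = 0.944). Eif1, a translation initiation factor gene on the far side of Krt23, was lower (log2 -0.41, edgeR adjusted p = 0.00484), opposite in direction to Krt23 and Krt10.

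**Figure D4:**
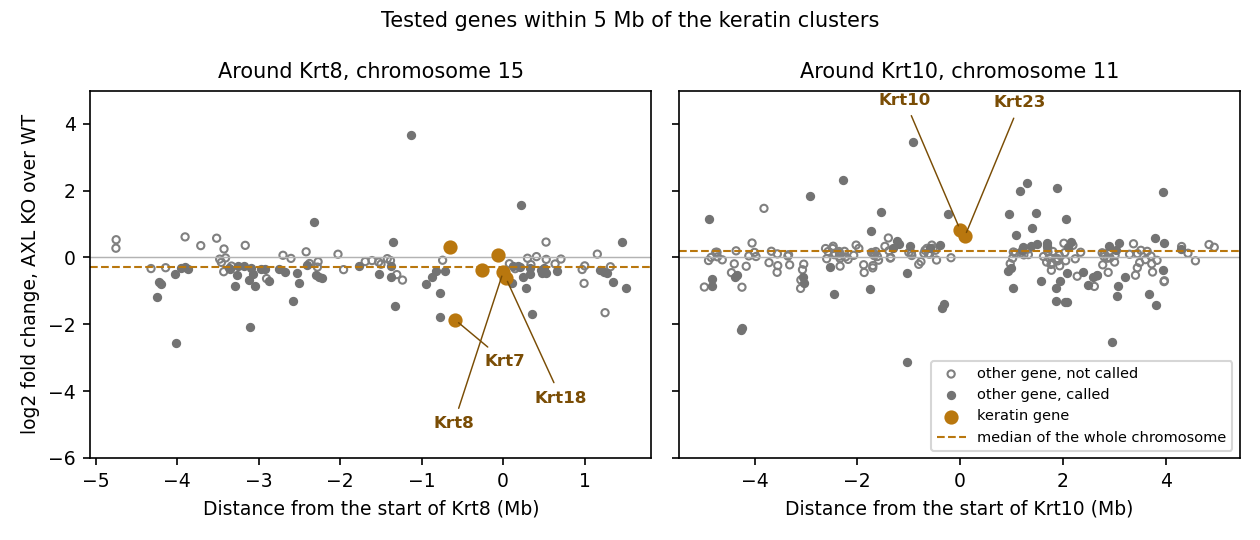
Log2 fold change, AXL KO over WT, of each tested gene within 5 Mb of the start of Krt8 (left) and of Krt10 (right), by distance in Mb; filled grey points are called genes, large points keratins, and the dashed line is the median of the whole chromosome (-0.29 and 0.18). Krt7, at -1.87, lies below most genes around it, and Krt8 and Krt18, at -0.44 and -0.60, lie among them.

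The 10 keratins were also summed and set against other epithelial transcripts of the same libraries. Their counts per length were 0.393, 0.385 and 0.334 of those of 25 non-keratin epithelial genes in the AXL KO libraries, against 0.416, 0.476 and 0.462 in the WT libraries. The groups did not overlap, the difference was -0.29 on the log2 scale, and the exact permutation test gave p = 0.1, the smallest possible (adjusted 0.25). When each tested gene counts alike, through the mean of log2 values, the difference was -0.078 (exact permutation p = 0.7). Krt8 and Krt18 make up most of the keratin sum and lie on chromosome 15, whose median log2 fold change was -0.29. Most of the 25 epithelial genes lie on other chromosomes. Epcam, for 1, lies on chromosome 17, whose median was -0.26. The ratio was not recomputed with chromosome medians removed, and the part of chromosome shifts in it was not tested. The epithelial genes themselves went both ways, with 6 of 25 higher and 7 lower and a median log2 fold change of -0.16, where 37.4% of all tested genes were called in either direction. Epcam, the epithelial adhesion molecule, had 1388 ± 44.8 CPM in AXL KO libraries and 1998 ± 48.7 CPM in WT libraries (edgeR adjusted p = 0.000659). The tight junction gene Cldn4 fell 3.58-fold, whereas the splicing regulator Esrp1 rose 1.47-fold (edgeR adjusted p of 0.000746 or lower for both). With chromosome medians removed Epcam stood at -0.27 and Esrp1 at 0.28, against -0.53 and 0.56 as fitted, on the log2 scale. Both kept their calls (edgeR adjusted p = 0.0183 and 0.0215), as did Cldn4, at -1.85 (edgeR adjusted p = 8.11e-05).

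Of 15 tested genes that anchor keratin filaments at desmosomes and hemidesmosomes 4 fell and 2 rose, with a median of -0.12, a share near the 37.4% called over all tested genes. Pkp1, a desmosomal plaque protein of stratified epithelium that binds keratins, had 28, 36 and 31 reads in AXL KO libraries and 468, 657 and 726 in WT libraries, 20.5-fold lower (edgeR adjusted p = 2.17e-06). Periplakin, encoded by Ppl, fell by 0.58 and Fam83h, which binds keratins, by 0.38 on the log2 scale (edgeR adjusted p = 0.0114 and 0.0159). Fam83h lies on chromosome 15, and with chromosome medians removed it stood at -0.089 and was not called (edgeR adjusted p = 0.53). The desmosomal cadherin Dsc2 rose 1.37-fold (edgeR adjusted p = 0.00184). Over all tested genes 18.3% were lower and 19.1% higher. Of 7 tested genes of other intermediate filaments 6 fell and none rose, with a median of -0.92: synemin (Synm) was 2.84-fold, nestin (Nes) and vimentin (Vim) 1.90-fold and lamin A (Lmna) 1.26-fold lower (edgeR adjusted p of 0.0173 or lower). Vimentin and synemin are filament proteins of fibroblasts, vessels and muscle, and 7 of 8 tested endothelial markers and 1 of 8 fibroblast markers were lower in the same libraries, with summed levels of 147 to 198 CPM in AXL KO and 250 to 287 CPM in WT libraries for endothelium and 1318 to 2161 CPM in AXL KO and 1729 to 2917 CPM in WT libraries for fibroblasts. Among the AXL KO libraries, replicate 2 stood above the others in stromal genes: Vim had 2966, 6450 and 3233 reads, Acta2 765, 2067 and 937, and Col1a1, a fibroblast collagen singled out after its values were seen, 8594, 18799 and 9826. Without that library 5 of 8 tested intermediate filament genes were lower and 0 higher, and Vim stood at -1.30, against -0.92 with it, on the log2 scale (edgeR adjusted p = 0.000143 and 0.0147). Without it 3 of 8 fibroblast markers were lower, and the keratin calls were 3 lower and 1 higher as with it. The fit without AXL KO replicate 2 called 36.9% of all its tested genes in either direction. Of 6 tested leukocyte markers 3 rose and none fell, and without AXL KO replicate 2 these counts were 3 and 1. The part of these cells in the keratin and filament differences was not tested.

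Markers of the basal layer were lower or did not pass the test. Trp63, the transcription factor that defines basal cells and was singled out after its values were seen, had 18, 25 and 24 reads in AXL KO libraries and 22, 12 and 16 in WT libraries, and did not pass the test (edgeR adjusted p = 0.435). Over all tested genes 37.4% were called in either direction and 18.3% were lower. Of 16 basal and myoepithelial markers 7 fell and none rose, with a median of -0.61, and 9 fell without AXL KO replicate 2. They included the smooth muscle genes Mylk and Acta2 (2.31- and 2.32-fold lower), which vessel walls also carry, the chemokine Cxcl14 (1.62-fold lower) and the repressor Snai2 (1.92-fold lower; edgeR adjusted p of 0.0297 or lower for these 4). With Krt5, Krt14 and Krt15 at or near 0, the smooth muscle genes of that list cannot be assigned to basal epithelium from these libraries. Of 14 tested luminal markers 4 rose and 2 fell, with a median of 0.20, again a share near the 37.4% called over all tested genes. The 4 that rose were Kit (1.77-fold), the oestrogen receptor Esr1 (2.01-fold), lactoferrin (Ltf, 5.86-fold) and Wfdc18 (2.62-fold). Their edgeR adjusted p was 0.000318 or lower. Areg and Aldh1a3, singled out after their values were seen, went the other way. With chromosome medians removed they were 3.87- and 2.48-fold lower (edgeR adjusted p = 0.00447 and 0.0275). In that fit 5 of 14 luminal markers were higher and 2 lower. The same fit called 15.0% of all tested genes higher and 15.0% lower.

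**Figure D5:**
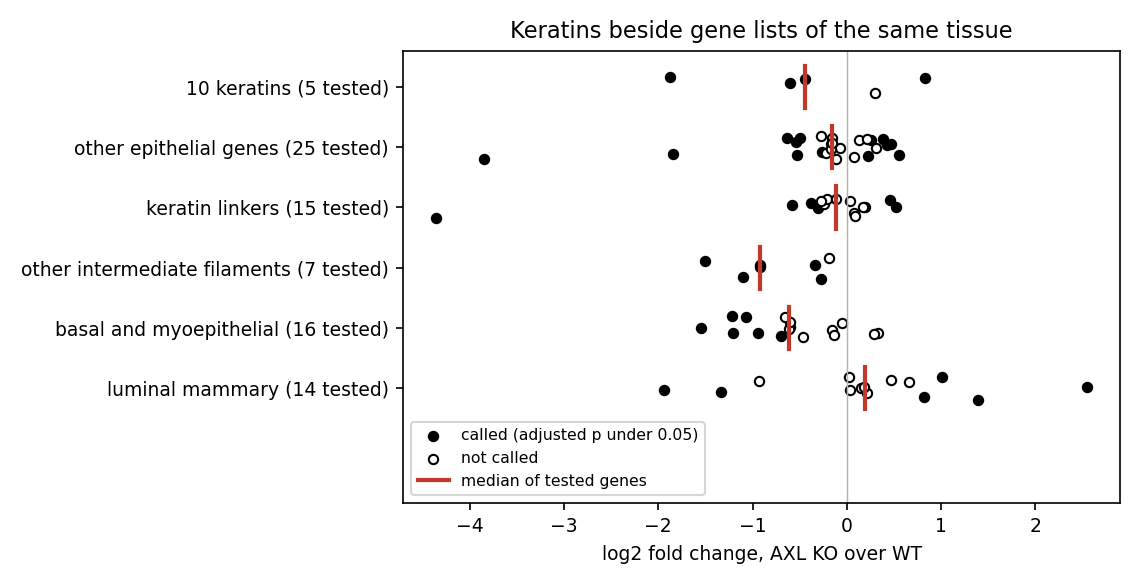
Log2 fold changes, AXL KO over WT, of the tested genes of 6 lists, with called genes filled, others open, and the list's median as a bar (points are spread vertically for legibility). Keratins, other intermediate filaments and basal or myoepithelial markers have medians of -0.44, -0.92 and -0.61, while luminal markers have a median of 0.20. Over all tested genes the median is 0.00. With chromosome medians removed (not drawn) the medians of these lists, in the same order, are -0.15, -0.91, -0.65 and 0.36.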

How the data were processed

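RNA-seq counts of 6 libraries were analysed. The submitters' processing notes list CASAVA 1.8, TopHat2 2.0.10, GRCm38, HTSeq 0.5.3 and DESeq2 1.4.5, without settings or use of strand. The deposited files hold raw counts per gene, and the 5 rows that name no gene (mostly reads without a unique alignment, 25.7% to 29.0% of all counted lines) were left out. The authors' deposited table adds a signal per library, which is the count over a size factor, a log2 fold change with its standard error and score (turned round here to AXL KO over WT), and p-values; it gave Krt7 -1.87, Krt18 -0.60, Krt8 -0.44 and Krt10 0.80, and was not used for any call.

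Genes were filtered with filterByExpr (minimum count 10, total 15), leaving 14850, scaled by TMM and tested by quasi-likelihood in edgeR 4.0.16 (R 4.3.3), with Benjamini-Hochberg adjustment over all tested genes and a threshold of 0.05; steps were tested on simulated data. TPM used the principal transcript's length in GENCODE M21. Exact permutation tests of single ratios were two-sided. Alternatives were DESeq2 1.42.0 and its size factors, upper-quartile factors, limma-voom 3.58.1, other filters, a stricter threshold, other lengths, a replicate block and each library left out. Removal of chromosome medians, lengths over all exons and list counts without AXL KO replicate 2 were added after seeing the data. Named were all 10 members, other keratins past the filter, the nearest tested genes and up to 4 genes of smallest p per list, of which 1 is not reported here. Members and lists were chosen with earlier results of these data known.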

Additional observations from a re-analysis of the deposited data

How the results depend on the processing

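The 3 lower keratins and the 1 higher keratin were called with DESeq2, limma-voom, DESeq2 size factors, upper-quartile factors, no filter and a replicate block, and with each library left out in turn (3 lower and 1 higher in every such fit). Keeping genes whose mean log2 CPM reached 2, and at an adjusted p under 0.01, 0 members were called higher: Krt10 was not tested in the first and had an edgeR adjusted p of 0.0124 in the second. With chromosome medians removed 1 member, Krt7, was called lower. Log2 fold changes over the left-out libraries ranged from -1.92 to -1.83 for Krt7, from -0.69 to -0.51 for Krt18, from -0.51 to -0.39 for Krt8, from 0.68 to 0.96 for Krt10 and from 0.012 to 0.70 for Krt80, which was never called. The basal to luminal ratio turned to -0.061 with counts not divided by length and ranged from -0.71 to 1.10 over left-out libraries. The type II to type I difference turned to -2.58 without Krt8 and Krt18 and ranged from 0.060 to 0.21 over left-out libraries, and the keratin to epithelial difference ranged from -0.34 to -0.21. Libraries with the same replicate number had correlations of deviations of -0.058, -0.13 and 0.088. These values cannot show whether the numbers mark shared animals or days, which the labels do not state. The type II to type I, basal to luminal and keratin to epithelial ratios differed by 0.14, 0.16 and -0.29 with the replicate block. With 3 libraries in each group, paired differences average to the unpaired difference whatever the data. The block was therefore no check on the size of these ratios. Krt5, Krt14, Krt17 and Krt19, below the count filter, were not called without a filter (edgeR adjusted p of 0.298, 0.502, 0.607 and 0.543), and Krt15 had no reads.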
